A study of Rattus norvegicus with 8 samples.

Results

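Il1rl1 encodes ST2, the receptor for the cytokine interleukin-33 (IL-33), and was examined here with its relatives in the IL-1 family in rat annulus fibrosus cells (AFCs) under cyclic mechanical stretch (CMS). The 10 genes Il1rl1, Il33, Il1r1, Il1rap, Il1a, Il1b, Il1rn, Il18, Myd88 and Irak1 were found by their symbols among the 31699 rows of the deposited table, and each matched 1 row. Il1rl1 was chosen by its low TPM in the samples labelled Lv-Piezo1, so its values are given as a description without a test. The other 9 genes belong to its family or pathway and were listed with earlier results of these data known.

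The AFCs came from the outer ring of the intervertebral disc of Sprague Dawley rats, and all 8 samples were stretched at 20% elongation and 0.5 Hz for 36 h, so no unstretched sample enters the comparison. The 4 samples labelled Lv-Ctrl had received the control lentivirus pLVX-shRNA-Puro, and the 4 labelled Lv-Piezo1 the same vector with a short hairpin RNA against the mechanosensitive channel Piezo1. Infection (multiplicity 20) lasted 24 h. The methods describe cells of passage 3 and the pooled tissue of 8 rats for each isolation, and give an age of 3 months for the male rats of the animal model without restating it for cell isolation. The study asked what depletion of Piezo1 does to gene expression in stretched AFCs. Expression was given as TPM, an abundance scaled to transcript length that allows levels of different genes to be compared but keeps no sequencing depth, so the depth is unknown and only the replicate spread (n = 4 per group) shows the precision.

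The targeted transcript went against its label. Piezo1 (ENSRNOG00000056786) measured 26.7 to 33.0 TPM across the Lv-Ctrl group and 37.7 to 41.4 TPM across the Lv-Piezo1 group, or 0.38 on the log2 scale (standard error, SE, 0.06, limma adjusted p = 8.6e-04). Groups are therefore named by their labels, and each difference is given as Lv-Piezo1 minus Lv-Ctrl. Were the labels exchanged, every direction in the text would turn round, and whether they were was not tested. The study describes a separate check of the knockdown, which is not analysed here. Log2 fold changes are on the log2(TPM + 1) scale, on which changes of weakly expressed genes come out too small, and were fitted over the 13103 genes with a mean of at least 1 TPM. Calls needed both an adjusted p (Benjamini-Hochberg) under 0.05 and an absolute log2 fold change of 1 or more, and 1005 tested genes (7.67%) met this, 644 higher and 361 lower. The split was 514 higher and 468 lower after median-ratio scaling and 463 and 485 after quantile normalization. The median change of all tested genes was 0.14, and -0.0046 after median-ratio scaling, so a small positive value lies near the bulk of the genes.

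Cytokines of the IL-1 family act through receptors that share a build of immunoglobulin-like domains outside the cell and a TIR domain inside it. IL-33 is held in the nucleus and released when cells are damaged or strained. It binds ST2, which then recruits the accessory protein IL1RAP, and the adaptor MyD88 and the IRAK kinases carry the signal to NF-kB and MAP kinases. IL-1α and IL-1β use the receptor IL1R1 with the same IL1RAP, while IL1RN blocks IL1R1 and IL1R2 is a decoy that binds the ligand without signalling. A soluble form of ST2, made from the same gene by another promoter and 3' end, also acts as a decoy for IL-33, and a row per gene adds the soluble and the membrane form together. In the disc, IL-1 is known for driving matrix breakdown.

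The sequences directly upstream of the genes are shown for Il1rl1, the gene at the centre of these results, and for Il33 and Il1r1, its ligand and a receptor gene of the same gene cluster, which were both higher. They are the 250 bases before each RefSeq gene start in assembly GRCr8, 5′ to 3′ on the strand of the gene, and all lie on the plus strand. The Il1rl1 window is chr9:50203388-50203637, that of Il1r1 is chr9:50034133-50034382, and Il33 has 2 starts, with windows chr1:237115323-237115572 and chr1:237134696-237134945. Capitals mark matches to the motif GGAATG of TEAD factors (either strand) and to the TATA box TATAAA (gene strand).
Il1rl1: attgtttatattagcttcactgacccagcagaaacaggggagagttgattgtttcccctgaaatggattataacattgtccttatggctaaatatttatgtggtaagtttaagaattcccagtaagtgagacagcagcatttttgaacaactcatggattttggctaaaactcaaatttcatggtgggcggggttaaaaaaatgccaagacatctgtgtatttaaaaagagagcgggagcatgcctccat
Il33, start 1: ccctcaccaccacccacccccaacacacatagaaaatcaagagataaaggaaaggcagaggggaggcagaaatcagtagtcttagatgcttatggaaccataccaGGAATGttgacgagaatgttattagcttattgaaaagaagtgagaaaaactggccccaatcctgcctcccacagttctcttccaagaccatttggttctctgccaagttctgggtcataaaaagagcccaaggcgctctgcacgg
Il33, start 2: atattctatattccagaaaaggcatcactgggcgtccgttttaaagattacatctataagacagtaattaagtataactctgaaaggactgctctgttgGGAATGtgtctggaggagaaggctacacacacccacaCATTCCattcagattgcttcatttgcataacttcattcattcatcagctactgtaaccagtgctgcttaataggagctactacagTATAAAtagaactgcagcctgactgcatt
Il1r1: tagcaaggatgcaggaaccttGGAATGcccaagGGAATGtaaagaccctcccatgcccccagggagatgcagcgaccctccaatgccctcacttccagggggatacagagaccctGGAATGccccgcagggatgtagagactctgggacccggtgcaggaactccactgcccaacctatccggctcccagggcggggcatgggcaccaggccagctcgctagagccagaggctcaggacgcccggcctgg
The Il1rl1 window held neither of these motifs, nor the AP-1 motif TGANTCA, the NF-kB motif (GGG and TTTCC with any pair of bases between them, on either strand) or a CArG box, the site of serum response factor. Both windows of Il33 held the TEAD motif, 145 bases before start 1 and 151 and 114 bases before start 2, and the second also held a TATA box 29 bases before the start. The Il1r1 window held the TEAD motif 3 times, at 229, 217 and 135 bases before the start. Of the 33360 distinct windows of this length in the RefSeq table, 12.1% held the TEAD motif, 8.06% a TATA box, 6.35% the AP-1 motif, 1.5% a CArG box and 1.30% the NF-kB motif. All 10 genes had an entry, and among them a TATA box was found before Il33, Il1a and Il1b, AP-1 before Il1a and Myd88 and NF-kB before Il1rn. The TEAD motif was found only before Il33 and Il1r1 among the 10. Il1rap and Il1a, which were also higher, held no TEAD motif. Il1rl2, a receptor gene outside the 10 that was higher too, held it 147 and 20 bases before its start, and a CArG box at 121 bases. Whether the motif bears on any change was not tested. The motifs were chosen after the table had been opened, and a match is a description of letters and not of a bound site. Which start these cells used, and which build the authors used, is not known from the deposited values.

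Il1rl1 (ENSRNOG00000014835) was the most abundant of the 10 transcripts in the Lv-Ctrl group and lost that place in the Lv-Piezo1 group. It measured 508, 488, 323 and 456 TPM across Lv-Ctrl replicates 1 to 4 and 29.6, 27.9, 30.4 and 35.6 TPM across Lv-Piezo1 replicates 1 to 4. Every Lv-Ctrl sample lay far above every Lv-Piezo1 sample, and replicate 3 was the lowest of the Lv-Ctrl group. The means were 444 ± 83.3 and 30.9 ± 3.34 TPM (SD, n = 4 each), 14.4-fold lower in the Lv-Piezo1 group, with a log2 fold change of -3.79 (SE 0.14). Without Lv-Ctrl replicate 3 the log2 fold change was -3.93. Among the tested genes, 0.145% had a larger absolute change. In RNA from bulk cultures, fewer cells that express a gene and less of its RNA per cell cannot be told apart.

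Il33 (ENSRNOG00000016456), the only known ligand of ST2, was higher in the samples where its receptor was lower. It measured 6.69, 5.71, 5.65 and 5.11 TPM across Lv-Ctrl replicates 1 to 4 and 35.4, 35.9, 34.4 and 37.9 TPM across Lv-Piezo1 replicates 1 to 4. The groups did not overlap and the spread within each was small. The means rose 6.20-fold, from 5.79 ± 0.658 to 35.9 ± 1.46 TPM (SD, n = 4 each), or 2.45 on the log2 scale (SE 0.07, limma adjusted p = 1.2e-08). Only 0.862% of the tested genes had a larger absolute change.

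Il1rap (ENSRNOG00000001928), the accessory chain that ST2, IL1R1 and the IL-36 receptor all need for signalling, also rose. Its levels were 5.54, 5.58, 4.46 and 5.09 TPM across Lv-Ctrl replicates 1 to 4 and 13.2, 14.4, 14.5 and 16.3 TPM across Lv-Piezo1 replicates 1 to 4. Again no sample of one group reached the other. The mean went from 5.17 ± 0.521 to 14.6 ± 1.29 TPM (SD, n = 4 each), 2.83-fold higher, with a log2 fold change of 1.34 (SE 0.08, limma adjusted p = 1.4e-06).

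**Figure D1:**
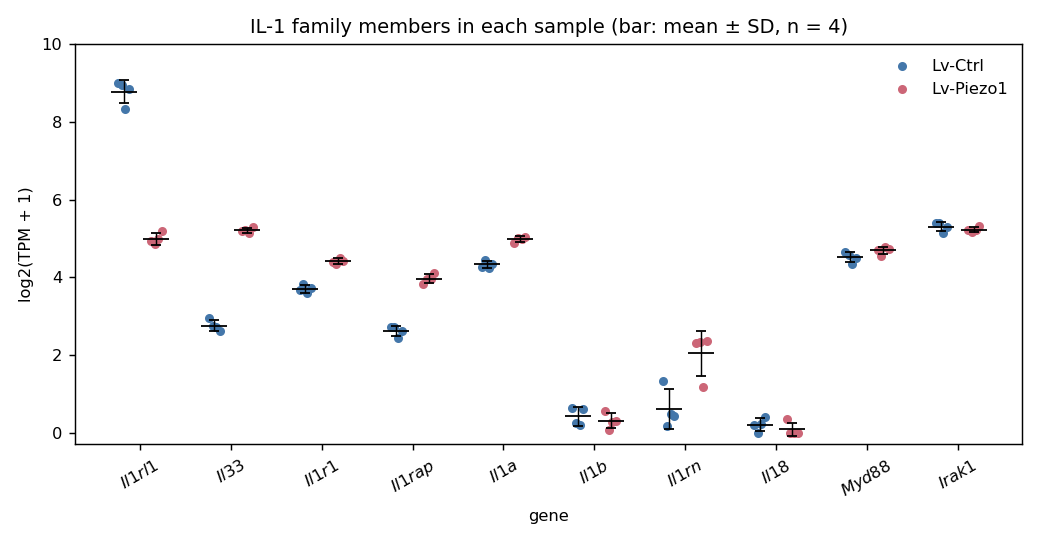
Levels of the 10 genes in each sample as log2(TPM + 1) on the vertical axis, with blue points for the 4 Lv-Ctrl samples, red points for the 4 Lv-Piezo1 samples and black bars for mean ± SD. Il1rl1 drops from means of 444 to 30.9 TPM while Il33, Il1r1, Il1rap and Il1a lie higher in the Lv-Piezo1 group, and Il1b and Il18 stay near 0 in both.

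Il1r1 (ENSRNOG00000014504), the signalling receptor for IL-1, was higher by less than the fold change limit. It measured 11.7, 13.1, 11.0 and 12.2 TPM across Lv-Ctrl replicates 1 to 4 and 20.2, 19.2, 21.7 and 20.4 TPM across Lv-Piezo1 replicates 1 to 4, without overlap. The log2 fold change was 0.72 (SE 0.06, limma adjusted p = 1.1e-05), or 1.70-fold between the means.

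Il1a (ENSRNOG00000004575), which encodes IL-1α, a cytokine released from damaged cells, was the IL-1 ligand these cells expressed. Its levels were 18.4, 20.8, 18.04 and 19.3 TPM across Lv-Ctrl replicates 1 to 4 and 28.5, 31.3, 30.8 and 31.9 TPM across Lv-Piezo1 replicates 1 to 4. All Lv-Piezo1 samples lay above all Lv-Ctrl samples. The log2 fold change of 0.65 (SE 0.06, limma adjusted p = 1.1e-05) was below the fold change limit.

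Il1b and Il18, the ligands that need cleavage by caspase-1, were close to absent from the values and were not tested. Il1b (ENSRNOG00000004649) ranged from 0.14 to 0.55 TPM in the Lv-Ctrl group and from 0.06 to 0.48 TPM in the Lv-Piezo1 group. Il18 (ENSRNOG00000009848) ranged from 0 to 0.32 TPM in the Lv-Ctrl group, and was listed at 0 in replicates 2, 3 and 4 and at 0.27 TPM in replicate 1 of the Lv-Piezo1 group. The groups overlapped for both genes.

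Il1rn (ENSRNOG00000005871), the receptor antagonist, was variable. It measured 1.53, 0.13, 0.40 and 0.36 TPM across Lv-Ctrl replicates 1 to 4 and 3.97, 4.02, 1.25 and 4.12 TPM across Lv-Piezo1 replicates 1 to 4. Replicate 1 of the Lv-Ctrl group lay above replicate 3 of the Lv-Piezo1 group, so the groups overlapped. Limma gave a log2 fold change of 1.43 (SE 0.33, adjusted p = 0.0047), and an exact two-sided permutation test of this single gene gave p = 0.057. The gene passed the filter on low values only through its level in the Lv-Piezo1 group, and with a pseudocount of 0.1 its log2 fold change was 2.53. As a share of the summed TPM of Il1a, Il1b and Il1rn, Il1rn made up 0.617% to 7.48% in the Lv-Ctrl samples and 3.88% to 12.0% in the Lv-Piezo1 samples.

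The shared adaptor and kinase differed little. Myd88 (ENSRNOG00000013634), the adaptor below all these receptors, measured 23.9, 22.8, 19.2 and 21.7 TPM across Lv-Ctrl replicates 1 to 4 and 25.0, 22.5, 26.3 and 25.7 TPM across Lv-Piezo1 replicates 1 to 4, and the groups overlapped. Its log2 fold change was 0.18 (SE 0.07, limma adjusted p = 0.065), and 0.02 after median-ratio scaling. Irak1 (ENSRNOG00000060869), a kinase recruited by MyD88, measured 41.2, 40.7, 34.2 and 38.1 TPM across Lv-Ctrl replicates 1 to 4 and 35.9, 34.7, 36.4 and 38.6 TPM across Lv-Piezo1 replicates 1 to 4, also with overlap. Its log2 fold change was -0.08 (SE 0.06, limma adjusted p = 0.32). After median-ratio scaling it was -0.24 (limma adjusted p = 0.0014) and under quantile normalization -0.20 (limma adjusted p = 0.0087). Both lay below the fold change limit, so the p-value of Irak1 depended on the scaling.

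Of the 10 genes, 8 passed the filter on low values, and Il1rl1 was chosen for its change. Of the other 7, Il33 and Il1rap were called higher, as was Il1rn, which the filter had admitted only through the Lv-Piezo1 group and whose groups overlapped. Of all tested genes 4.91% were called higher, and with members chosen in this way nothing is read from the count. An adjusted p under 0.05 at any fold change was reached by 5 of the 7, adding Il1r1 and Il1a, and by 58.2% of all tested genes. Groups without overlap were seen for 4 of the 7 genes, Il33, Il1rap, Il1r1 and Il1a, all with the Lv-Piezo1 samples above, which held for 39.8% of all tested genes, while 54.2% had no overlap in either direction. These shares are high, so a gap between the groups alone says little here. For each of these 4 genes an exact two-sided permutation test gave p = 0.029, the smallest value that 4 samples against 4 allow.

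The order of levels within the family changed with the group. In the Lv-Ctrl group it ran from Il1rl1 (444 TPM) through Irak1 (38.6), Myd88 (21.9), Il1a (19.1), Il1r1 (12.0), Il33 (5.79) and Il1rap (5.17) to Il1rn (0.605), Il1b (0.353) and Il18 (0.16 TPM). Samples of Myd88 and Il1a overlapped there, as did those of Il33 and Il1rap and those of the 3 lowest genes. In the Lv-Piezo1 group the order was Irak1 (36.4 TPM), Il33 (35.9), Il1rl1 (30.9), Il1a (30.6), Myd88 (24.9), Il1r1 (20.4), Il1rap (14.6), Il1rn (3.34), Il1b (0.25) and Il18 (0.0675 TPM). Samples of Il1rl1 overlapped with those of Irak1, Il33 and Il1a there. Those of Irak1 and Il33 also overlapped, as did those of Il1b and Il18, while those of Il1a and Myd88 did not overlap. Il1rl1 was no longer set apart from its ligand or from Il1a.

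Ratios within a sample, chosen after the values had been seen, put these shifts together, and they are descriptions because they hold Il1rl1 or genes known to move. The ratio of Il1rl1 to Il33 transcripts was 57.2 to 89.3 in the Lv-Ctrl samples and 0.776 to 0.940 in the Lv-Piezo1 samples. For Il1rl1 to its accessory chain Il1rap, the ratio was 72.5 to 91.7 and 1.93 to 2.25. For the signalling receptor Il1r1 to the decoy Il1r2, it was 0.414 to 0.469 and 3.01 to 4.70. None of these ratios overlapped between the groups. Il1rl1 made up 87.3% to 90.8% of the summed TPM of 8 receptor genes of the family in the Lv-Ctrl samples and 38.1% to 41.4% in the Lv-Piezo1 samples. Without Il1rl1, the sum of the other 7 receptors was 46.9 to 53.6 TPM and 43.9 to 50.4 TPM, with overlap between the groups.

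**Figure D2:**
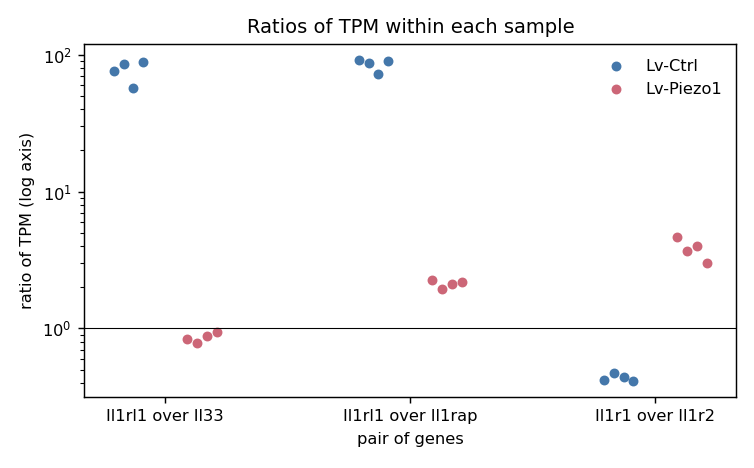
Ratio of the TPM of a pair of genes within each sample on a log axis, with blue points for Lv-Ctrl and red points for Lv-Piezo1 samples and a line at a ratio of 1. Il1rl1 exceeds Il33 by 57.2 to 89.3 times in the Lv-Ctrl samples and lies below it, at 0.776 to 0.940, in the Lv-Piezo1 samples, while Il1r1 over Il1r2 moves from below 1 to above 3.

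The other receptors and binding proteins of the family moved in both directions. Of 8 listed genes, 5 were tested, and 1 was called higher and 1 lower, with a median log2 fold change of -0.51 beside 0.14 for all tested genes. Of all tested genes 4.91% were called higher and 2.76% lower, and with so few genes nothing is read from the count. Il1r2, the decoy receptor for IL-1, measured 27.9, 27.9, 25.1 and 29.5 TPM across Lv-Ctrl replicates 1 to 4 and 4.29, 5.23, 5.38 and 6.78 TPM across Lv-Piezo1 replicates 1 to 4. All Lv-Piezo1 samples lay below, and the mean fell 5.09-fold, or -2.17 on the log2 scale (SE 0.11, limma adjusted p = 3.8e-07). Il1rl2, the receptor for IL-36, rose from 0.765 ± 0.0493 to 2.81 ± 0.164 TPM (SD, n = 4 each), or 1.11 on the log2 scale (SE 0.09, limma adjusted p = 9.0e-06), and passed the filter only through the Lv-Piezo1 group. It was 0.88 after quantile normalization, below the limit. The IL-18 receptor chains Il18r1 and Il18rap were lower by 0.51 and 0.53 on the log2 scale, below the fold change limit (adjusted p = 0.017 and 2.4e-04 from limma). Il18r1 passed the filter only through the Lv-Ctrl group, with means of 1.635 TPM there and 0.86 TPM in the Lv-Piezo1 group. Il18bp, which traps IL-18, had a log2 fold change of 0.03 (SE 0.23, limma adjusted p = 0.92). Of the IL-36 ligands and their antagonist and the related Il1f10, 4 genes were in the table and all were listed at 0 in every sample.

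**Figure D3:**
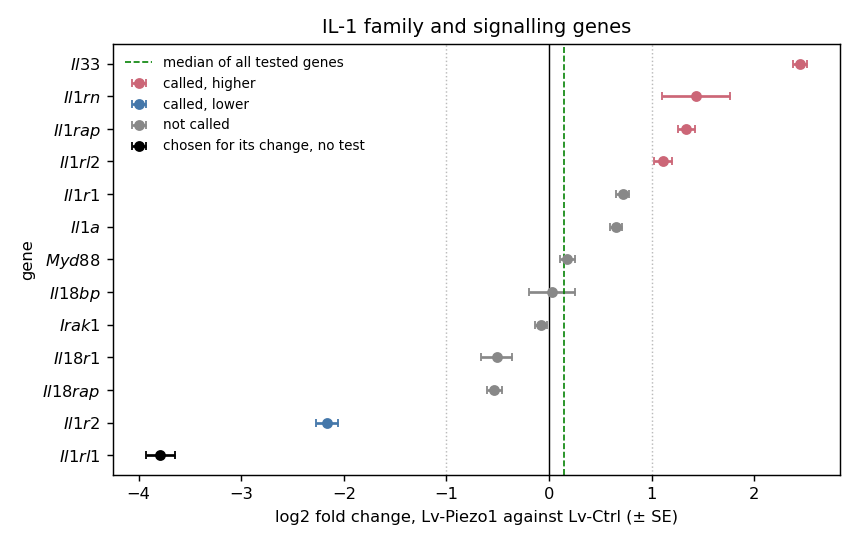
Log2 fold change of the 8 tested members and 5 further family receptors and binding proteins on the horizontal axis, with standard errors as bars, dotted lines at the limits of -1 and 1 and a dashed green line at the median of all tested genes. Il33 lies highest at 2.45 and Il1rl1, drawn in black because it was chosen for its change, lowest at -3.79, with the decoy Il1r2 at -2.17.

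Il1rl1 lies in a cluster of receptor genes of the family, in the order Il1r2, Il1r1, Il1rl2, Il1rl1, Il18r1 and Il18rap in RefSeq, and the change was not of one kind along it. Il1r2 fell, Il1r1 was higher below the fold change limit, Il1rl2 rose, and Il1rl1 and the IL-18 receptor chains were lower. Both genes directly next to Il1rl1 thus differed from it in size or direction, Il1rl2 at 1.11 and Il18r1 at -0.51 on the log2 scale. Outside the cluster, Map4k4 and Rfx8 on one side had log2 fold changes of 0.08 and 0.03 (adjusted p = 0.42 and 0.86 from limma), and both were negative after median-ratio scaling, at -0.08 and -0.07. On the other side Slc9a4 and Slc9a2 were listed at 0 in every sample, and Mfsd9 had a log2 fold change of 0.28 (adjusted p = 0.092 from limma). Il1rl1 was the highest of these 11 genes in the Lv-Ctrl samples.

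**Figure D4:**
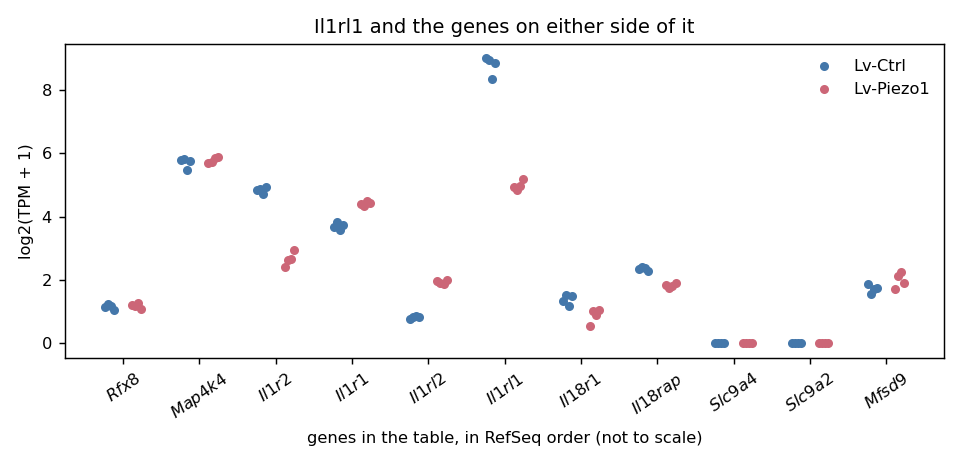
Levels as log2(TPM + 1) of Il1rl1 and the 5 genes of the table on either side of it, in RefSeq order and not to scale, with a point per sample in blue (Lv-Ctrl) and red (Lv-Piezo1). Il1r2 and Il1rl1 are lower in the Lv-Piezo1 samples, while Il1r1 and Il1rl2 between them are higher and Map4k4 and Rfx8 overlap.

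The genes whose profile over the 8 samples was most like that of Il1rl1 were Gpr83, Olr1684, Clic2, Fam111a and Apoe. Likeness was the root mean square difference of log2(TPM + 1) after centring each gene, which was 0.225, 0.242, 0.243, 0.354 and 0.394 for these genes and had a median of 1.98 over all tested genes. Gpr83, a G protein-coupled receptor, went from 22.1 to 1.02 TPM, and Apoe, the lipid carrier apolipoprotein E, from 203 to 21.7 TPM. The likeness rests almost wholly on the gap between the groups and depends on the pseudocount for genes near 0. With a pseudocount of 0.1 the log2 fold change was -6.17 for Olr1684, which went from 10.0 to 0.0425 TPM, and -4.35 for Gpr83, beside -3.83 for Il1rl1.

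Below the receptors, the signalling genes were called about as often as all tested genes (7.67%). Of 13 tested genes that carry the signal from the receptor complex to the kinase TAK1, 1 was called, higher, and their median log2 fold change was 0.17. Irak3, a member of the IRAK family that restrains signalling, rose from 6.42 ± 0.755 to 14.1 ± 0.704 TPM (SD, n = 4 each), or 1.03 on the log2 scale (SE 0.08, limma adjusted p = 5.1e-06). The call was lost after median-ratio scaling (0.88), after quantile normalization (0.84) and without Lv-Ctrl replicate 3 (0.98). Of 15 tested NF-kB subunits, kinases and inhibitors, 1 was called, higher, with a median of 0.24. This was Tnfaip3, which encodes A20, an enzyme that ends NF-kB signalling. It went from 2.18 ± 0.407 to 7.79 ± 0.771 TPM (SD, n = 4 each), or 1.47 on the log2 scale (SE 0.11, limma adjusted p = 5.1e-06).

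No gene of the MAP kinase list or of the list for processing of IL-1 was called. Of 10 tested MAP kinase genes, 5 had an adjusted p below 0.05 in limma with changes below the limit, 5 had an unadjusted p below 0.05, and the median log2 fold change was 0.04. Among all tested genes 58.2% had such an adjusted p. Of 7 tested genes for processing and the inflammasome, these counts were 4 and 4, with a median of 0.08. Pycard, the inflammasome adaptor ASC, had the largest change of that list at 0.81 on the log2 scale (adjusted p = 0.0024 from limma) and passed the fold change limit with a pseudocount of 0.1. Casp1, the protease that matures IL-1β and IL-18, was below the filter, at 0.20 to 0.99 TPM in the Lv-Ctrl samples and 0.07 to 0.35 TPM in the Lv-Piezo1 samples. Pycard was named after its values had been seen, and so was Casp1.

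Genes known to respond to IL-1 in fibroblasts and disc cells changed in both directions. Of 24 tested, 7 were called higher and 6 lower, with a median log2 fold change of 0.49, where 4.91% of all tested genes were called higher and 2.76% lower. With a mean TPM of at least 5, 5 of 22 were called higher and 6 lower. The list was chosen with earlier results of these data known, so nothing is read from the counts. The rises included those of the gelatinase Mmp9, from 4.51 ± 0.532 to 24.4 ± 1.31 TPM, and of the chemokine Cxcl6, from 0.63 ± 0.229 to 5.64 ± 0.472 TPM (SD, n = 4 each). Their log2 fold changes were 2.21 and 2.04 (adjusted p at most 1.2e-06 from limma), and Cxcl6 passed the filter on low values only through the Lv-Piezo1 group. So did Csf2, which was also called higher, with means of 0.345 TPM in the Lv-Ctrl and 2.82 TPM in the Lv-Piezo1 group. Csf2 was named after its values had been seen. The largest falls were those of the chemokine Ccl20, from 134 ± 4.58 to 14.3 ± 2.46 TPM, of Nos2, the inducible nitric oxide synthase, from 35.2 ± 2.05 to 7.47 ± 0.254 TPM, and of the collagenase Mmp13, from 888 ± 57.3 to 227 ± 14.3 TPM (SD, n = 4 each). Their log2 fold changes were -3.15, -2.10 and -1.96 (adjusted p at most 1.6e-08 from limma). For Mmp9, Cxcl6, Ccl20, Nos2 and Mmp13 the groups did not overlap, which held for 54.2% of all tested genes. These genes were named for their large changes, so nothing is read from the gap. Other cytokines are also known to act on these genes.

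**Figure D5:**
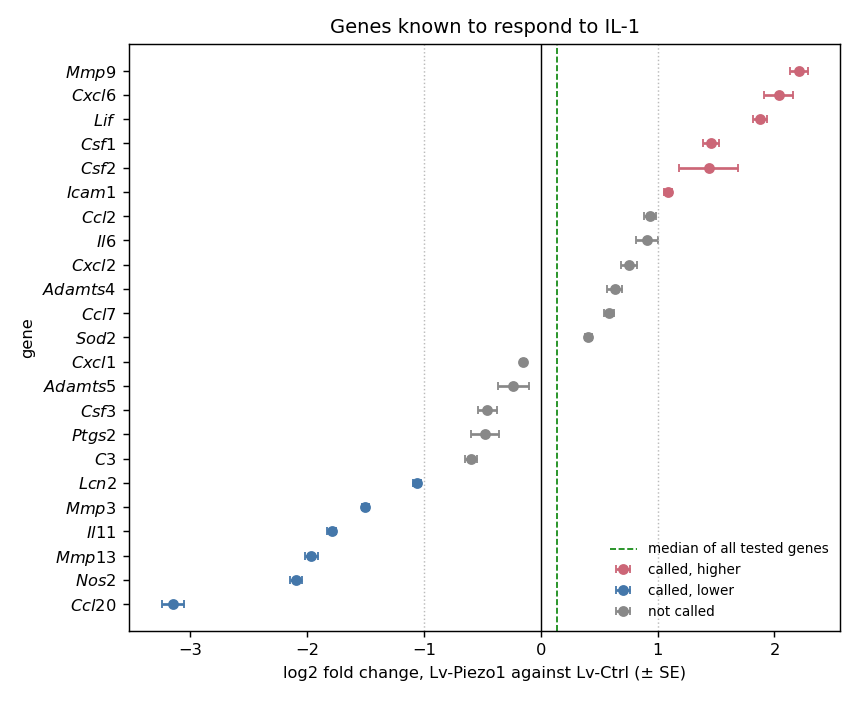
Log2 fold change of 23 of the 24 tested genes known to respond to IL-1 on the horizontal axis, with standard errors as bars, dotted lines at -1 and 1 and a dashed green line at the median of all tested genes. The genes called higher (red) run up to Mmp9 at 2.21 and the 6 called lower (blue) down to Ccl20 at -3.15.

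Of 12 factors known or proposed to act on the Il1rl1 promoters (AP-1 subunits, GATA factors, Spi1 and Runx1), 9 were tested and 0 were called, while 6 had an adjusted p below 0.05 in limma and 7 an unadjusted p below 0.05. For all tested genes the shares were 7.67% called and 58.2% with an adjusted p below 0.05. Of the 6, 3 were higher (Fosl1, Gata2 and Runx1) and 3 lower (Fos, Fosb and Jun). Jun, an AP-1 subunit, went from 95.8 ± 5.32 to 58.6 ± 3.05 TPM (SD, n = 4 each), or -0.70 on the log2 scale (adjusted p = 4.4e-06 from limma), and Fos from 106 ± 9.68 to 85.7 ± 5.58 TPM (SD, n = 4 each), or -0.31 on the log2 scale (adjusted p = 0.0053 from limma). The AP-1 subunits did not move together. Fosb lay at -0.64, Fosl2 at -0.21 and Jund at -0.19, while Junb lay at 0.01 and Fosl1 at 0.18. Runx1 had a log2 fold change of 0.42. Gata2 had 1.84 ± 0.212 and 3.27 ± 0.446 TPM (SD, n = 4 each), and Gata1, which acts in mast cells, was listed at 0 throughout. The factors named singly here were chosen after their values had been seen.

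Markers of mast cells and endothelial cells, which commonly carry ST2 outside connective tissue, were close to absent. Of the markers listed for T cells and for macrophages, most were also near 0 and a few were not. Of 7 mast cell markers in the table, 5 were listed at 0 in every sample and the list summed to 0.10 to 0.25 TPM in the Lv-Ctrl samples and 0.11 to 0.30 TPM in the Lv-Piezo1 samples. The 7 endothelial markers summed to 0.34 to 0.61 and 0.39 to 0.62 TPM. Of 9 T cell and ILC2 markers, 5 (Cd3e, Cd3d, Il7r, Il13 and Il5) were listed at 0 in every sample, and the sums were 0.85 to 1.90 and 1.11 to 5.10 TPM. These came mostly from Gata3 and Il2ra, and Il2ra reached 3.63 TPM in Lv-Piezo1 replicate 2. Of 10 leukocyte and macrophage markers, Adgre1, Cd163 and Tyrobp were listed at 0 in every sample, and Ptprc did not exceed 0.01 TPM. The sums of that list were 21.8 to 23.6 and 37.3 to 42.3 TPM, mostly from Cd14 and Cd68. Cd14 measured 20.9 ± 0.324 TPM in the Lv-Ctrl and 25.8 ± 1.91 TPM in the Lv-Piezo1 group (SD, n = 4 each). Cd68 went from 0.955 ± 0.899 to 12.3 ± 0.901 TPM (SD, n = 4 each), and its part in the family's changes was not tested. Of the 12 annulus fibrosus and fibroblast markers, the collagen genes Col1a1 and Col1a2 and the proteoglycan genes Dcn and Lum were abundant, at 384 TPM or more throughout, and the tendon-lineage marker Tnmd was listed at 0 in 7 of the 8 samples. The list summed to 8641 to 9651 TPM in the Lv-Ctrl samples and 12340 to 13120 TPM in the Lv-Piezo1 samples and differed between the groups in both directions. Over all tested genes, 4.91% were called higher and 2.76% lower, and 58.2% had an adjusted p under 0.05 at any fold change. Of 11 tested markers of this list, 0 were called higher and 2 lower, Dcn at -1.49 and the growth factor receptor Pdgfra at -1.36 on the log2 scale. Below the fold change limit, 6 were higher and 2 lower with an adjusted p under 0.05 from limma, among them Scx at 0.89, Col1a1 at 0.83, Col1a2 at 0.71, Mkx at -0.76 and Fmod at -0.99. The part of these markers in the family's changes was not tested.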

How the data were processed

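Gene expression of stretched AFCs was compared between 4 Lv-Ctrl and 4 Lv-Piezo1 samples. Per the methods, the authors filtered reads, aligned them with HISAT2 and assembled transcripts with StringTie. The authors' processing notes name DESeq2 and the mouse build mm10, although the rows carry rat Ensembl identifiers, so the build is uncertain. The authors deposited TPM per sample with 2 decimals. The methods name FPKM, and how TPM was computed is not given in the sources used here. No count test was run on TPM.

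Here log2(TPM + 1) was fitted with limma 3.58.1 in R 4.3.3 (trended empirical Bayes, Benjamini-Hochberg over 13103 genes, no block). The fit was also run on simulated data with known changes. It called 100 of 100 changes of 1.5 and 99 of 100 changes of 2.5 on the log2 scale, with 2 false calls. The simulation used independent noise and changed no weakly expressed gene, so it does not cover such genes or shared batch effects. The paper calls the samples 4 biological repeats per group. Its methods count the cells of each isolation, given different treatments, as an independent repeat. That describes separate isolations shared by both groups, while the labels do not say that the samples came from separate cultures. If they did not, p-values measure only the technical spread.

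The members and gene lists were chosen with earlier results of these data known, and the lists come from general knowledge. Named genes are the members, at most 3 rises and 3 falls among called genes of a list, 5 genes on each side of Il1rl1, the 5 nearest profiles and Piezo1. Markers, and genes that short counts or family membership needed, were named beside them. One gene that meets this rule is counted in its list but not reported here. Il36b, Dusp1, Ptges, Saa3, Cldn5 and Mcpt1 were not analysed here. Upstream sequences are RefSeq's (GRCr8). Alternatives covered the pseudocount, filter, scaling, moderation, replicate block, fold change threshold and each left-out sample.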

Additional observations from a re-analysis of the deposited data

Results flagged for a closer look

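Among 66 groups of 4 samples, 2 for each of 33 named genes, 3 held a sample whose gap to the next exceeded Dixon's 95% critical share of the range of its group, and chance alone gives about 1 group in 20. Il1rn had 1.25 TPM in Lv-Piezo1 replicate 3, against 3.97 to 4.12 TPM in the other 3 samples of that group. Il18 had 0.27 TPM in Lv-Piezo1 replicate 1 and was listed at 0 in the other 3. Ccl20 had 17.98 TPM in Lv-Piezo1 replicate 3, where the others of its group had 12.8 to 13.3 TPM.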

How the results depend on the processing

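Beside Il1rl1, which was not tested, 3 members were called, all higher. This count was 2 with a mean TPM of at least 5, which leaves Il1rn out, 5 without the fold change threshold, and 3 in the other alternatives. Over all alternatives the log2 fold change ranged from -3.95 to -3.72 for Il1rl1 and from 2.28 to 2.62 for Il33. Of 427 values of 29 single genes under an alternative, 417 kept direction and call, 4 lost the call and 6 reversed. The reversals were those of genes near 0. Rfx8 was -0.0652 after median-ratio scaling and -0.2117 under quantile normalization, and ran from -0.0071 to 0.0614 when 1 sample was left out (-0.0071 without Lv-Ctrl replicate 4 and -0.0005 without Lv-Piezo1 replicate 3). Map4k4 was -0.0794 after median-ratio scaling and -0.0223 under quantile normalization.

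Without the fold change threshold, 58.2% of all tested genes passed, so nothing is read from the counts of the lists. These were 4 of 5 tested genes of the other receptors (2 with it), 8 of 13 of the Myddosome and TAK1 list (1 with it) and 11 of 15 of the NF-kB list (1). They were 5 of 10 of the MAP kinase list (0), 4 of 7 of the inflammasome list (0), 23 of 24 of the IL-1 response list (13) and 6 of 9 of the promoter regulators (0). With a mean TPM of at least 5, 1 of the other receptors and 0 of the NF-kB list were called, since fewer genes were tested. Quantile normalization left 1 of the other receptors and 0 of the Myddosome list, and median-ratio scaling 0 of the Myddosome list. That count was 0 to 1 when 1 sample was left out, and 0 without Lv-Ctrl replicate 3. With a pseudocount of 0.1, 1 inflammasome gene was called. The cause was not tested where none is given.

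With the replicate number as a block, 3 members beside Il1rl1 were called, as without it, and 1004 genes against 1005. The 13 called IL-1 response genes and 1 called gene of the NF-kB list had the same counts. The methods describe isolations split over treatments, which would pair the groups, but neither they nor the labels say which samples share an isolation. Deviations of same-numbered samples from the group means correlated across genes at -0.06 to -0.01, so the number was treated as a name only. TPM keeps no depth, so counting error could not be given, and the 4 samples of a group limit the precision.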
